A study of Mus musculus with 14 samples.

Results

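Wnt signalling in mouse embryonic stem cells (ESCs) was described here through 56 genes: every Wnt ligand, Frizzled receptor, Dickkopf and secreted Frizzled-related protein gene of the numbered families, plus Lrp5, Lrp6, Axin1, Axin2, Lef1, Tcf7, Tcf7l1, Tcf7l2, Sp5, Nkd1, Notum, Rnf43, Znrf3, Lgr4, Lgr5, Ctnnb1, Apc, Gsk3a and Gsk3b. The genes were chosen by a rule on names and not on values, although earlier results of these data were known. All 56 were matched to 1 Ensembl identifier each, among 37991 identifiers in the replicated experiment and 37620 in a second, unreplicated one. By role, 19 were ligands, 12 receptors and co-receptors, 4 belonged to the R-spondin axis, 9 were secreted antagonists, 5 belonged to the destruction complex with its substrate β-catenin, 4 were TCF/LEF factors and 3 were feedback targets.

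The cells were C57BL/6 ESCs with a dual reporter, mCherry for mir-290 and eGFP for mir-302, and 14 RNA-seq libraries were used. In the replicated experiment (experiment B, 10 libraries) ESCs were seeded sparsely and kept 5 days in 1 of 5 media, with 2 libraries each: serum and LIF (FBS/LIF), the same with 500 µM vitamin C (VitC/LIF), 2i/LIF, L-proline with LIF (L-Pro/LIF, dose not given for this experiment), or serum-free N2B27 with 20 ng/ml activin A and 12 ng/ml bFGF (F/A). The other experiment (experiment A) had 4 single libraries of mCherry+/eGFP+ cells. These were untreated cells in serum, LIF and 100 µM vitamin C (day 0), cells after 5 days in 1 mM L-proline with serum and LIF, and cells after 3 and after 5 days in F/A, with 20 ng/ml activin A and an unstated dose of bFGF. Every library comes from this reporter line. Whether the replicates were separate cultures is not given, so the p-values measure only the spread between these libraries, which may be technical.

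In canonical Wnt signalling a secreted Wnt ligand binds a Frizzled receptor together with Lrp5 or Lrp6, which stops the destruction complex of Axin, Apc and Gsk3 from marking β-catenin for degradation, and β-catenin then acts with TCF/LEF factors on target genes. Among those targets are brakes on the pathway itself: Axin2 rebuilds the destruction complex, Notum strips the lipid from Wnt ligands, and Rnf43 and Znrf3 remove Frizzled receptors unless R-spondins engage Lgr receptors. In ESCs the Gsk3 inhibitor of 2i stabilises β-catenin from inside the cell and supports the naive state, whereas Wnt ligands of the epiblast are known for starting the primitive streak.

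Libraries of experiment B held 6937945 to 26354444 mapped fragments and those of experiment A 33162689 to 39711061 counted reads. Values are CPM (counts scaled to library size, with TMM factors), and FPKM, which also divides by length, where genes are compared with each other. Changes are log2 fold changes with their standard error (SE), over FBS/LIF unless another reference is named. Of the 56 genes, 52 passed the low-count filter in experiment B and were tested among 16033 genes; Wnt1, Wnt2, Wnt8b and Dkk4 stayed at or below 0.435 CPM in every library. Between the 2 F/A libraries 23.71% of genes with at least 5 CPM differed over 1.5-fold, against 3.582% to 7.079% in the other media. Which of the 2 departs was not tested. Replicate 1 in F/A was the shallowest library, so results in F/A over FBS/LIF that rest on it are also given without it. The ESC marker list (10 genes, none at 0) summed to 4977 to 5717 CPM in FBS/LIF, VitC/LIF and 2i/LIF, 3351 to 3405 CPM in L-Pro/LIF and 1768 to 2153 CPM in F/A. Over FBS/LIF 7 of the 10 fell in L-Pro/LIF (70%, beside 24% of all tested genes called). In F/A 8 of the 10 fell and 1 rose (90%, beside 46.4%). None was below 1 CPM in any library, but Dppa5a went from a mean of 1443 CPM in FBS/LIF to 2.68 in F/A, Zfp42 from 451 to 1.65 and Sox2 from 665 to 60.6, while Pou5f1 was at 882 and 485 CPM and Sall4 at 244 and 236.

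With FBS/LIF as the reference, the 3 media that changed the Wnt genes did so in different ways. In 2i/LIF 25 of the 52 tested genes passed an edgeR adjusted p of 0.05, 10 higher and 15 lower, beside 30.4% of all tested genes. In L-Pro/LIF 27 passed, 24 higher and 3 lower, beside 24% of all genes. In F/A 40 passed, 34 higher and 6 lower, beside 46.4% of all genes. In VitC/LIF 0 passed, beside 0.674% of all genes. The median log2 fold change of the 52 genes was -0.14 in 2i/LIF, 1.36 in F/A and 0.81 in L-Pro/LIF, whereas the median over all tested genes lay between -0.04 and 0.05. The 2i/LIF median is the same with Lgr5 and Dkk2, at 0 there, set to their 3-count floor. Higher calls made up 12.5%, 13.7% and 24.4% of all genes in 2i/LIF, L-Pro/LIF and F/A. The 3 comparisons share the FBS/LIF libraries. Counted over all 5 media, 31 of the 52 genes had their highest mean in F/A and 27 their lowest in 2i/LIF. The same count was not made over all tested genes, so it does not set the Wnt genes apart.

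**Figure D1:**
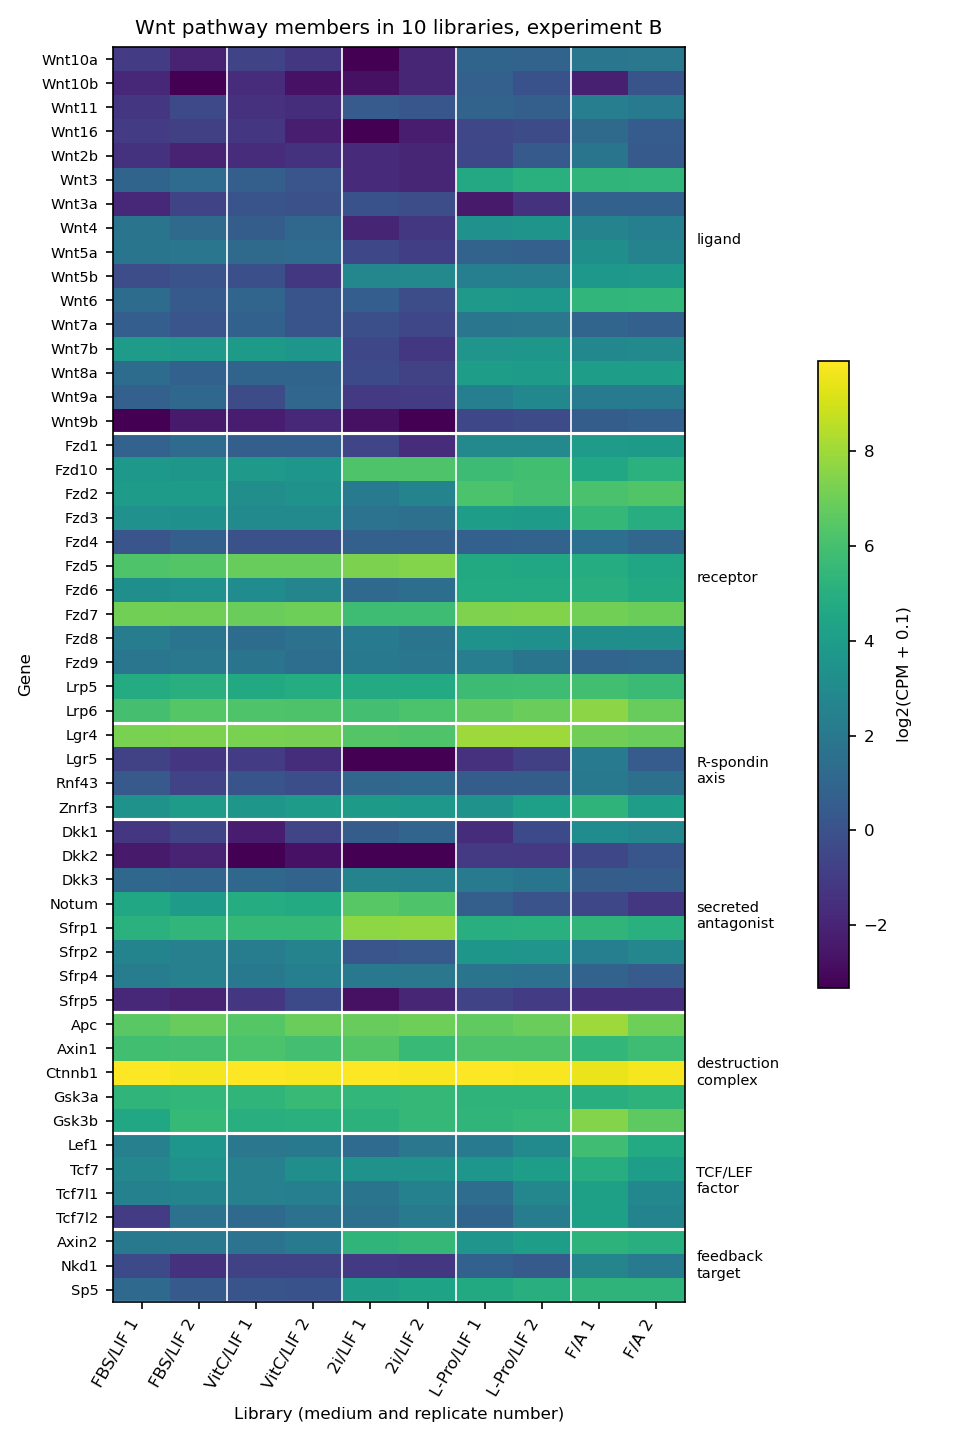
Rows are the 52 tested Wnt genes in blocks by role and columns the 10 libraries of experiment B; colour gives log2(CPM + 0.1). Wnt3, Wnt6 and Wnt8a are brighter (higher) in L-Pro/LIF and F/A than in the other media, Ctnnb1 is the brightest row in every library, and Lgr5 and Dkk2 are at 0 in both 2i/LIF libraries.

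**Figure D2:**
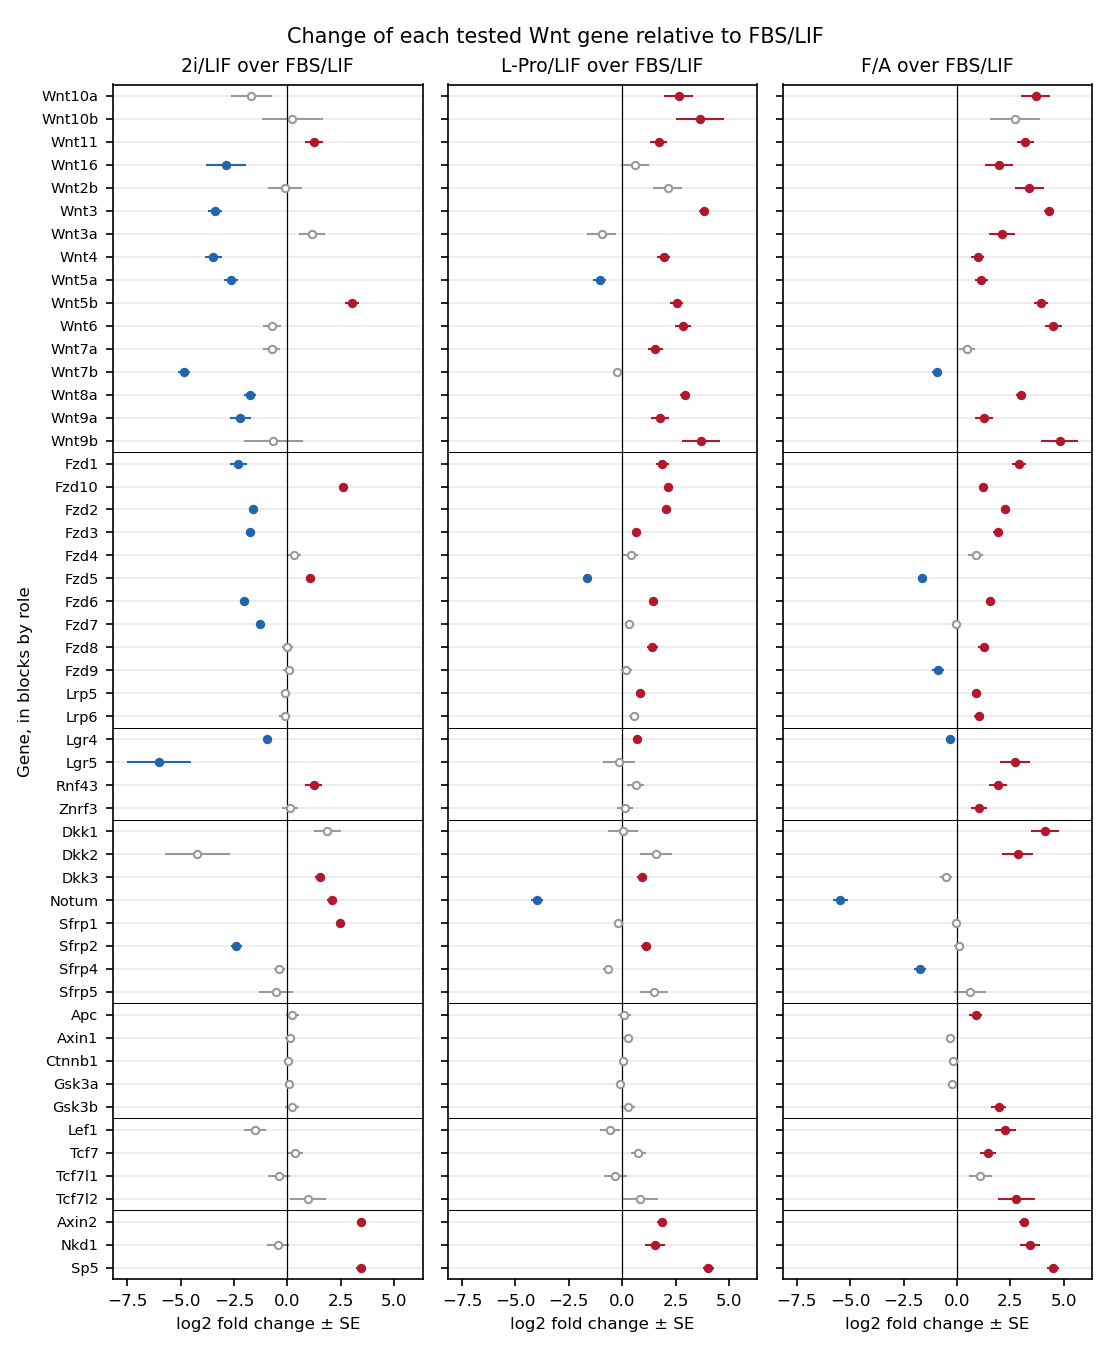
Each point is the log2 fold change of 1 gene over FBS/LIF with its standard error, in 2i/LIF (left), L-Pro/LIF (middle) and F/A (right); filled red points passed the edgeR adjusted p of 0.05 upward, filled blue points downward, open grey points did not pass. In 2i/LIF 10 genes are red and 15 blue, in L-Pro/LIF 24 and 3, and in F/A 34 and 6. The 2i/LIF points of Lgr5 and Dkk2, both at 0 there, are fitted values and no bound.

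Most called ligands were lower in 2i/LIF and higher in L-Pro/LIF and F/A. Of 16 tested ligands, 2 rose and 7 fell in 2i/LIF, 11 rose and 1 fell in L-Pro/LIF, and 13 rose and 1 fell in F/A, each over FBS/LIF. That is 56.25%, 75% and 87.5% called, beside 30.4%, 24% and 46.4% of all tested genes. The ligands' FPKM values summed to 10.5 and 12 in the FBS/LIF libraries, 8.76 and 10.5 in VitC/LIF, 6.06 and 6.61 in 2i/LIF, 43.4 and 43.7 in L-Pro/LIF and 75.8 and 79.4 in F/A. L-Pro/LIF and F/A were also set directly against 2i/LIF, 2 comparisons added after the data were seen and given from the main fit only. There 13 ligands were higher and 1 (Wnt3a) lower in L-Pro/LIF, beside 44.6% of all genes called, and 14 were higher and 0 lower in F/A, beside 58.4%.

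Wnt3, the ligand required for the primitive streak, had the widest span of the tested ligands between media. Its level was 1.8 and 2.34 CPM in FBS/LIF, 1.49 and 1.04 in VitC/LIF, 0.212 and 0.168 in 2i/LIF, 25.5 and 33.3 in L-Pro/LIF and 40.5 and 41.4 in F/A. No library of any of the 3 media 2i/LIF, L-Pro/LIF and F/A overlapped with FBS/LIF. Wnt3 fell in 2i/LIF (log2 -3.40 ± 0.34, edgeR adjusted p = 0.000128) and rose in L-Pro/LIF (log2 3.82 ± 0.23, edgeR adjusted p = 1.96e-05) and F/A (log2 4.30 ± 0.23, edgeR adjusted p = 3.98e-06). Between L-Pro/LIF and 2i/LIF the log2 difference was 7.22 ± 0.31 (SE).

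Wnt6 and Wnt8a, both ligands expressed around gastrulation, were both raised in L-Pro/LIF and F/A. Wnt6 measured 2.5 and 1.22 CPM in FBS/LIF, 1.88 and 0.983 in VitC/LIF, 1.43 and 0.785 in 2i/LIF, 13.6 and 13.3 in L-Pro/LIF and 41.2 and 44 in F/A. It rose in both L-Pro/LIF (log2 2.85 ± 0.38, edgeR adjusted p = 0.0011) and F/A (log2 4.51 ± 0.40, edgeR adjusted p = 6.26e-05), and was higher in F/A than in L-Pro/LIF (log2 1.66 ± 0.35, edgeR adjusted p = 0.0145). Without FBS/LIF replicate 1, the higher of its 2 control libraries, the L-Pro/LIF value was 3.46 and the F/A value 5.10. Wnt8a measured 2.45 and 1.64 CPM in FBS/LIF, 1.82 and 1.79 in VitC/LIF, 0.689 and 0.504 in 2i/LIF, 16.2 and 15.2 in L-Pro/LIF and 16.4 and 16.7 in F/A. It fell in 2i/LIF (log2 -1.76 ± 0.28, edgeR adjusted p = 0.0017) and rose in L-Pro/LIF (log2 2.94 ± 0.24, edgeR adjusted p = 9.38e-05) and F/A (log2 3.01 ± 0.24, edgeR adjusted p = 3.66e-05). The log2 difference between L-Pro/LIF and F/A, 0.07 ± 0.22 (SE), did not pass the test.

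**Figure D3:**
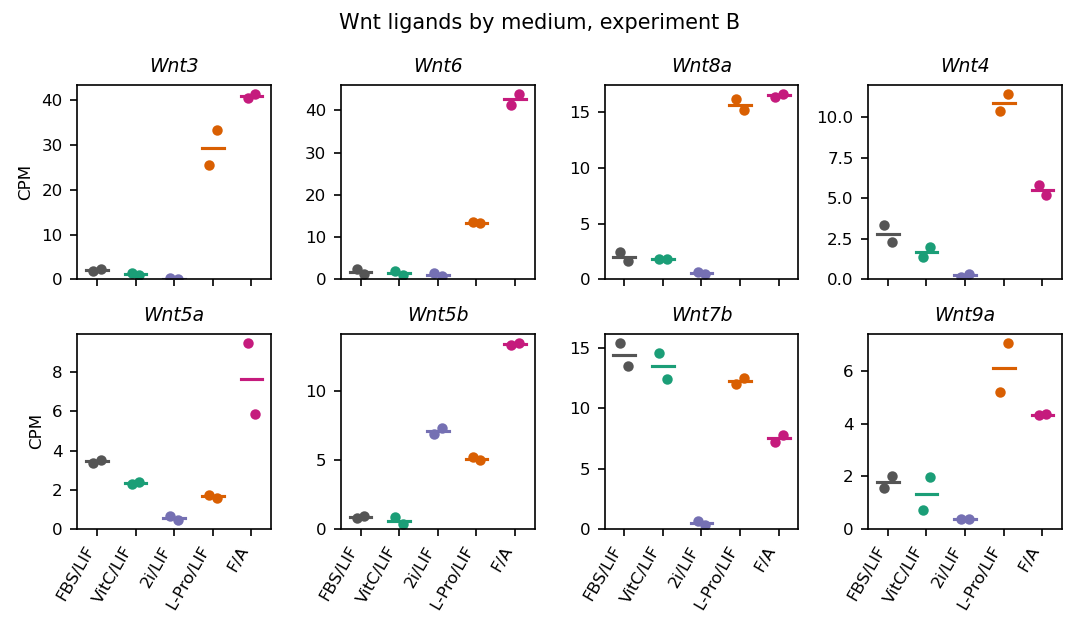
CPM of 8 Wnt ligands in experiment B; each point is 1 library, each line the mean of the 2 libraries of a medium, and every axis starts at 0 with its own scale. Wnt3, Wnt6, Wnt8a and Wnt4 are high in L-Pro/LIF and F/A, Wnt7b is lowest in 2i/LIF, and Wnt5b is higher in 2i/LIF than in FBS/LIF.

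Wnt4 and Wnt9a had their highest means in L-Pro/LIF. Wnt4, a ligand best known from kidney and gonad development, was at 3.33 and 2.3 CPM in FBS/LIF, 1.38 and 2.02 in VitC/LIF, 0.159 and 0.336 in 2i/LIF, 10.4 and 11.5 in L-Pro/LIF and 5.83 and 5.2 in F/A. It fell in 2i/LIF (log2 -3.48 ± 0.40, edgeR adjusted p = 0.000307; -4.09 without 2i/LIF replicate 2), rose in L-Pro/LIF (log2 1.95 ± 0.31, edgeR adjusted p = 0.0024) and rose in F/A (log2 0.96 ± 0.31, edgeR adjusted p = 0.0324). The F/A call was lost when any 1 of the 4 libraries was left out (log2 values 0.70 to 1.24). The direct difference, F/A over L-Pro/LIF, was log2 -0.99 ± 0.30, edgeR adjusted p = 0.0478. It did not pass when the replicate number entered the fit as a block (edgeR adjusted p 0.0526), in limma, or without any 1 library. Wnt9a, below 8 CPM throughout, stood at 0.371 and 0.392 CPM in 2i/LIF, 1.57 and 2.02 in FBS/LIF, 0.718 and 1.97 in VitC/LIF, 4.31 and 4.35 in F/A and 5.18 and 7.07 in L-Pro/LIF. Its 3 calls (log2 -2.21 ± 0.49 (SE) in 2i/LIF, 1.27 ± 0.42 (SE) in F/A, 1.77 ± 0.41 (SE) in L-Pro/LIF) were each lost when single libraries were left out, with no change of sign. F/A over L-Pro/LIF was -0.50 ± 0.40 (SE) and did not pass.

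Wnt7b was the ligand with the highest mean FPKM in FBS/LIF (4.40 ± 0.38 SD, n = 2) and in VitC/LIF (4.10 ± 0.46), and it had the largest fall of the tested ligands in 2i/LIF. Its CPM was 15.4 and 13.5 in FBS/LIF, 14.6 and 12.4 in VitC/LIF, 0.636 and 0.336 in 2i/LIF, 12 and 12.5 in L-Pro/LIF and 7.23 and 7.8 in F/A. The 2i/LIF libraries lay far below all others (log2 -4.86 ± 0.28, edgeR adjusted p = 9.61e-06). The smaller drop in F/A (log2 -0.94 ± 0.22, edgeR adjusted p = 0.00926) did not pass without FBS/LIF replicate 1 (log2 -0.85, adjusted p 0.061 by edgeR), and in L-Pro/LIF the difference of -0.24 ± 0.21 (SE) did not pass. By FPKM the leading ligands of F/A were Wnt6 (25.7 ± 0.13 SD, n = 2), Wnt3 (15.9 ± 0.44) and Wnt8a (12.1 ± 0.44). In L-Pro/LIF Wnt8a (10.2 ± 1.0) and Wnt3 (10.1 ± 1.4) were not separated by their spread and Wnt6 followed (7.2 ± 0.46). In 2i/LIF Wnt5b led (3.41 ± 0.13), and no other ligand had a mean above 0.755 FPKM.

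The ligands used mostly outside β-catenin signalling behaved unlike one another. Wnt5b was at 0.786 and 0.937 CPM in FBS/LIF, 0.828 and 0.347 in VitC/LIF, 6.84 and 7.29 in 2i/LIF, 5.18 and 4.98 in L-Pro/LIF and 13.3 and 13.5 in F/A. It rose in all 3 media: 2i/LIF (log2 3.03 ± 0.32, edgeR adjusted p = 0.000184), L-Pro/LIF (log2 2.55 ± 0.32, edgeR adjusted p = 0.000755) and F/A (log2 3.95 ± 0.33, edgeR adjusted p = 4.08e-05). Wnt5a, its closest relative, was at 3.37 and 3.52 CPM in FBS/LIF, 2.32 and 2.37 in VitC/LIF, 0.636 and 0.448 in 2i/LIF, 1.74 and 1.58 in L-Pro/LIF and 9.51 and 5.85 in F/A. Wnt5a fell where Wnt5b rose: in 2i/LIF (log2 -2.65 ± 0.34, edgeR adjusted p = 0.000547) and in L-Pro/LIF (log2 -1.05 ± 0.30, edgeR adjusted p = 0.035, lost when any 1 of the 4 libraries was left out). In F/A it rose (log2 1.14 ± 0.29, edgeR adjusted p = 0.0133), a call that was lost without F/A replicate 1 (log2 0.76, edgeR adjusted p 0.076) and without either FBS/LIF library. Wnt11 stayed low, at 0.324 and 0.656 CPM in FBS/LIF, 1.27 and 1.07 in 2i/LIF, 1.74 and 1.5 in L-Pro/LIF and 4.95 and 4.25 in F/A. Its rise was largest in F/A (log2 3.21 ± 0.40, edgeR adjusted p = 0.0004), while the call in 2i/LIF (log2 1.25 ± 0.40, edgeR adjusted p = 0.0468) was lost under 5 of the 6 other processing choices, the replicate block among them (edgeR adjusted p 0.0652). In L-Pro/LIF it was log2 1.71 ± 0.40, edgeR adjusted p = 0.0146 (2.30 without FBS/LIF replicate 2, and lost without replicate 1 of either medium).

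The remaining ligands stayed below 4 CPM. Wnt10a, Wnt10b, Wnt7a and Wnt9b rose in L-Pro/LIF, and Wnt10a, Wnt9b, Wnt2b, Wnt3a and Wnt16 rose in F/A, with log2 fold changes, Wnt9b aside, of 1.55 to 3.64 and 1.99 to 3.69. The 4 L-Pro/LIF calls, and in F/A those of Wnt3a and Wnt16, were lost when single libraries were left out. The size of several depended on a control library: in L-Pro/LIF without FBS/LIF replicate 1 Wnt10a was 3.61 and Wnt10b 7.54, without replicate 2 Wnt10b was 2.69, and in F/A without these Wnt10a was 4.63 or 3.11 and Wnt3a 1.5 or 3.07. Without F/A replicate 1 Wnt2b was 2.54. Wnt9b rested on 2 estimated counts over both FBS/LIF libraries, so the F/A to FBS/LIF ratio of 32.4 has a 95% counting interval of 8.42 to 276. Wnt16 fell in 2i/LIF on 2 against 19 counts (ratio 8.12, interval 1.96 to 71.9), a call that was lost with the replicate block (edgeR adjusted p 0.0647) and without 3 of the 4 libraries (log2 -1.92 without 2i/LIF replicate 1, -6.10 without replicate 2). Intervals and floors cover counting error only. Some ligand genes are neighbours in the mouse annotation: Wnt6 and Wnt10a on chromosome 1, Wnt3 and Wnt9b on chromosome 11, Wnt3a and Wnt9a on chromosome 11, and Wnt10b and Wnt1 on chromosome 15. Wnt10a was called with Wnt6, and Wnt9b with Wnt3, in both L-Pro/LIF and F/A. Of the other pair, Wnt3a was called in F/A and Wnt9a in all 3 media.

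Among the receptors, Fzd7 led in every medium but 2i/LIF, and the gene in second place differed between media. Of 12 receptors and co-receptors, 2 rose and 5 fell in 2i/LIF, 7 rose and 1 fell in L-Pro/LIF, and 8 rose and 2 fell in F/A. That is 58.33%, 66.67% and 83.33% called, beside 30.4%, 24% and 46.4% of all tested genes. By FPKM, Fzd7 and Fzd5 led in FBS/LIF (28.2 ± 0.32 and 11.5 ± 0.64 SD, n = 2) and in VitC/LIF. In 2i/LIF Fzd10 and Fzd5 led (24.0 ± 0.21 and 23.6 ± 2.1, not separated by their spread). In L-Pro/LIF Fzd7 (35.9 ± 0.65) was followed by Fzd2 and Fzd10 (19.1 ± 2.8 and 18.5 ± 0.28, not separated), and in F/A Fzd7 (31.6 ± 2.7) by Fzd2 and Lrp6 (24.3 ± 1.4 and 21.3 ± 7.8, not separated).

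Fzd5, a Frizzled known from the early embryo and the eye, ran opposite to most of its family. It was at 76.9 and 81.8 CPM in FBS/LIF, 114 and 114 in VitC/LIF, 156 and 178 in 2i/LIF, 26.5 and 24.5 in L-Pro/LIF and 28.8 and 22 in F/A. No 2 of these groups overlapped except L-Pro/LIF and F/A. Fzd5 rose in 2i/LIF (log2 1.07 ± 0.14, edgeR adjusted p = 0.000562) and fell in L-Pro/LIF (log2 -1.64 ± 0.14, edgeR adjusted p = 0.000117) and F/A (log2 -1.65 ± 0.14, edgeR adjusted p = 5.24e-05).

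Fzd2 showed the reverse order. Its level was 16 and 15.4 CPM in FBS/LIF, 9.16 and 11 in VitC/LIF, 4.29 and 5.89 in 2i/LIF, 70.4 and 60.8 in L-Pro/LIF and 69.2 and 79.8 in F/A. It fell in 2i/LIF (log2 -1.63 ± 0.18, edgeR adjusted p = 0.000237) and rose in L-Pro/LIF (log2 2.06 ± 0.17, edgeR adjusted p = 9.82e-05) and F/A (log2 2.25 ± 0.17, edgeR adjusted p = 2.75e-05), whose ranges overlapped. Fzd1, Fzd3 and Fzd6 were called in the same directions as Fzd2 in all 3 media. Fzd6, for instance, was at 9.52 and 10.2 CPM in FBS/LIF, 8.67 and 6.3 in VitC/LIF, 2.17 and 2.69 in 2i/LIF, 26.6 and 26.9 in L-Pro/LIF and 32.1 and 25.9 in F/A. Fzd3, at 10.3 and 9.84 CPM in FBS/LIF, was highest in F/A (45.1 and 30.6 CPM) and lowest in 2i/LIF (3.23 and 2.8 CPM); its L-Pro/LIF value (log2 0.67 ± 0.19, edgeR adjusted p = 0.0363) was lost when any 1 of the 4 libraries was left out. Fzd1 went from 0.583 and 0.224 CPM in 2i/LIF through 1.66 and 2.39 in FBS/LIF to 7.38 and 7.51 in L-Pro/LIF and 15.9 and 14.9 in F/A, and its 2i/LIF value of -2.30 ± 0.38 (SE) was -3.14 without 2i/LIF replicate 1.

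Fzd7, a Frizzled known to support ESC self-renewal, passed over FBS/LIF in 2i/LIF alone. It measured 136 and 132 CPM in FBS/LIF, 116 and 128 in VitC/LIF, 55.8 and 55.1 in 2i/LIF, 164 and 168 in L-Pro/LIF and 134 and 123 in F/A. The fall in 2i/LIF was log2 -1.27 ± 0.10, edgeR adjusted p = 4.51e-05. In L-Pro/LIF the value of 0.31 ± 0.10 (SE) missed the threshold in edgeR (adjusted p 0.0566) and passed in DESeq2 (0.0319). Fzd8 rose from 4.53 and 3.28 CPM in FBS/LIF to 11.1 and 9.76 in L-Pro/LIF (log2 1.41 ± 0.25, edgeR adjusted p = 0.00419) and 9.38 and 9.35 in F/A (log2 1.26 ± 0.25, edgeR adjusted p = 0.00433). Fzd10 was raised in all 3 media, from 12.9 and 12.7 CPM in FBS/LIF to 76.6 and 78 in 2i/LIF (log2 2.59 ± 0.19, edgeR adjusted p = 2.81e-05), 54.4 and 59.2 in L-Pro/LIF (log2 2.15 ± 0.18, edgeR adjusted p = 0.000116) and 23.6 and 35.1 in F/A (log2 1.20 ± 0.18, edgeR adjusted p = 0.00112). Only 26.8% of the estimated Fzd10 counts came from reads unique to the gene, so its level is uncertain, although the calls also passed on unique reads alone. Fzd9, below 5 CPM, fell in F/A (log2 -0.89 ± 0.28, edgeR adjusted p = 0.0284; lost without either FBS/LIF library or F/A replicate 1), and Fzd4, below 3 CPM, passed in none of these 3 comparisons.

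The co-receptors moved less than the Frizzleds. Lrp5 was at 27.9 and 31.7 CPM in FBS/LIF, 26.4 and 28.6 in VitC/LIF, 27.3 and 26.9 in 2i/LIF, 53.1 and 54.9 in L-Pro/LIF and 59.7 and 51.3 in F/A. Its L-Pro/LIF and F/A libraries lay above all 6 others and it rose in both media (log2 0.86 ± 0.12, edgeR adjusted p = 0.00142 and log2 0.89 ± 0.12, edgeR adjusted p = 0.000655). Lrp6 was at 64.7 and 83.9 CPM in FBS/LIF, 75.4 and 74.7 in VitC/LIF, 62.9 and 72.1 in 2i/LIF, 102 and 116 in L-Pro/LIF and 196 and 112 in F/A. Only the F/A value passed (log2 1.05 ± 0.24, edgeR adjusted p = 0.00807), and it did not without FBS/LIF replicate 1 (log2 0.85, edgeR adjusted p 0.066).

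In the R-spondin axis, Lgr4 and its relative Lgr5, both receptors for R-spondins, went down in 2i/LIF. Lgr4 was abundant, at 152 and 159 CPM in FBS/LIF, 149 and 145 in VitC/LIF, 81.9 and 77.7 in 2i/LIF, 247 and 253 in L-Pro/LIF and 129 and 118 in F/A. It fell in 2i/LIF (log2 -0.96 ± 0.10, edgeR adjusted p = 0.000171), rose in L-Pro/LIF (log2 0.69 ± 0.10, edgeR adjusted p = 0.00163) and was slightly lower in F/A (log2 -0.33 ± 0.10, edgeR adjusted p = 0.0255; lost in limma and without either FBS/LIF library). Lgr5 was scarce, at 0.509 and 0.328 CPM in FBS/LIF, 0 in both 2i/LIF libraries, 0.275 and 0.474 in L-Pro/LIF and 4.44 and 1.35 in F/A. Against a floor of 3 counts over the group, Lgr5 was at least 5.13-fold lower in 2i/LIF than the 18 counts of FBS/LIF, a call that was lost on unique reads alone (edgeR adjusted p 0.0885), in limma and without 3 of the 4 libraries. Its rise in F/A (log2 2.72 ± 0.70, edgeR adjusted p = 0.016) was 1.67 without F/A replicate 1, which did not pass.

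The ubiquitin ligases Rnf43 and Znrf3, feedback brakes that clear Frizzled from the surface, were both called higher in F/A. Rnf43 was at 1.2 and 0.562 CPM in FBS/LIF, 0.994 and 0.81 in VitC/LIF, 1.96 and 2.19 in 2i/LIF, 1.38 and 1.38 in L-Pro/LIF and 3.93 and 2.9 in F/A. Its F/A value was log2 1.93 ± 0.41, edgeR adjusted p = 0.00561 (2.56 without FBS/LIF replicate 1), and its 2i/LIF value of 1.23 ± 0.40 (SE) (edgeR adjusted p 0.0492) did not pass in DESeq2, in limma, without the filter, or without 3 of the 4 libraries (1.87 without FBS/LIF replicate 1, 0.78 without replicate 2). Znrf3 was at 11.2 and 15 CPM in FBS/LIF, 12.8 and 15.4 in VitC/LIF, 14.7 and 13.4 in 2i/LIF, 10.8 and 17.6 in L-Pro/LIF and 38.2 and 16.8 in F/A. The 2 F/A libraries were far apart, the value of 1.05 ± 0.38 (SE) dropped to 0.36 without F/A replicate 1 (edgeR adjusted p 0.394), and with the replicate block its adjusted p was 0.0603.

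Of 8 secreted antagonists tested, 3 rose and 1 fell in 2i/LIF (50%, beside 30.4% of all tested genes), 2 rose and 1 fell in L-Pro/LIF (37.5%, beside 24%), and 2 rose and 2 fell in F/A (50%, near the 46.4% of all tested genes). Their summed mean FPKM was 27.7 in FBS/LIF, 34.3 in VitC/LIF, 106 in 2i/LIF, 19.4 in F/A and 18.7 in L-Pro/LIF, and Notum and Sfrp1 made up most of the 2i/LIF sum (53.7 ± 8.5 and 48.1 ± 2.5 FPKM, SD, n = 2).

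Notum, the extracellular enzyme that inactivates Wnt ligands, ran from 89.9 and 75.6 CPM in 2i/LIF through 29 and 26.8 in VitC/LIF and 23.1 and 16 in FBS/LIF to 1.51 and 0.948 in L-Pro/LIF and 0.634 and 0.35 in F/A. None of the 5 pairs of libraries overlapped. It rose in 2i/LIF (log2 2.08 ± 0.23, edgeR adjusted p = 0.00024) and fell in L-Pro/LIF (log2 -3.99 ± 0.28, edgeR adjusted p = 3.98e-05) and F/A (log2 -5.45 ± 0.35, edgeR adjusted p = 1.04e-05), where Axin2 and Sp5 rose. Sfrp1, which binds Wnt ligands, was at 34.3 and 42.2 CPM in FBS/LIF, 44.4 and 44.8 in VitC/LIF, 204 and 220.1 in 2i/LIF, 32.7 and 33.3 in L-Pro/LIF and 40.2 and 33.9 in F/A. It rose in 2i/LIF (log2 2.47 ± 0.14, edgeR adjusted p = 7.9e-06), and its differences in L-Pro/LIF (-0.21 ± 0.13 (SE)) and F/A (-0.05 ± 0.13 (SE)) did not pass.

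Sfrp2 took the other direction in 2i/LIF. It was at 6.15 and 5.34 CPM in FBS/LIF, 1.01 and 1.18 in 2i/LIF, 12.8 and 11.7 in L-Pro/LIF and 5.07 and 6.95 in F/A, a fall in 2i/LIF (log2 -2.39 ± 0.26, edgeR adjusted p = 0.000214) and a rise in L-Pro/LIF (log2 1.09 ± 0.23, edgeR adjusted p = 0.00961; lost without replicate 2 of FBS/LIF or replicate 1 of L-Pro/LIF). Dkk1, an inhibitor that occupies Lrp5 and Lrp6, was highest in F/A: 8.62 and 6.9 CPM there, against 0.324 and 0.562 in FBS/LIF, 0.11 and 0.578 in VitC/LIF, 1.38 and 1.91 in 2i/LIF and 0.229 and 0.672 in L-Pro/LIF. It rose in F/A over FBS/LIF (log2 4.11 ± 0.66, edgeR adjusted p = 0.00145) and over L-Pro/LIF (log2 4.06 ± 0.65, edgeR adjusted p = 0.0052); the latter was 3.46 without L-Pro/LIF replicate 1 and 5.01 without replicate 2. Its value in 2i/LIF (1.87 ± 0.65 (SE), edgeR adjusted p 0.0593) did not pass, although it did in DESeq2. Dkk3, a divergent family member, was at 5.88 and 5.61 CPM in 2i/LIF (log2 1.52 ± 0.24, edgeR adjusted p = 0.00193) against 2.08 and 1.92 in FBS/LIF, and at 4.22 and 3.44 in L-Pro/LIF (log2 0.93 ± 0.24, edgeR adjusted p = 0.0243; lost without any 1 of the 4 libraries). Sfrp4 fell in F/A to 1.78 and 1.3 CPM (log2 -1.72 ± 0.27, edgeR adjusted p = 0.00137), Dkk2 rose there on 26 against 5 counts, a call lost in DESeq2 and without either FBS/LIF library or F/A replicate 2, and Sfrp5 stayed below 1 CPM in every library.

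**Figure D4:**
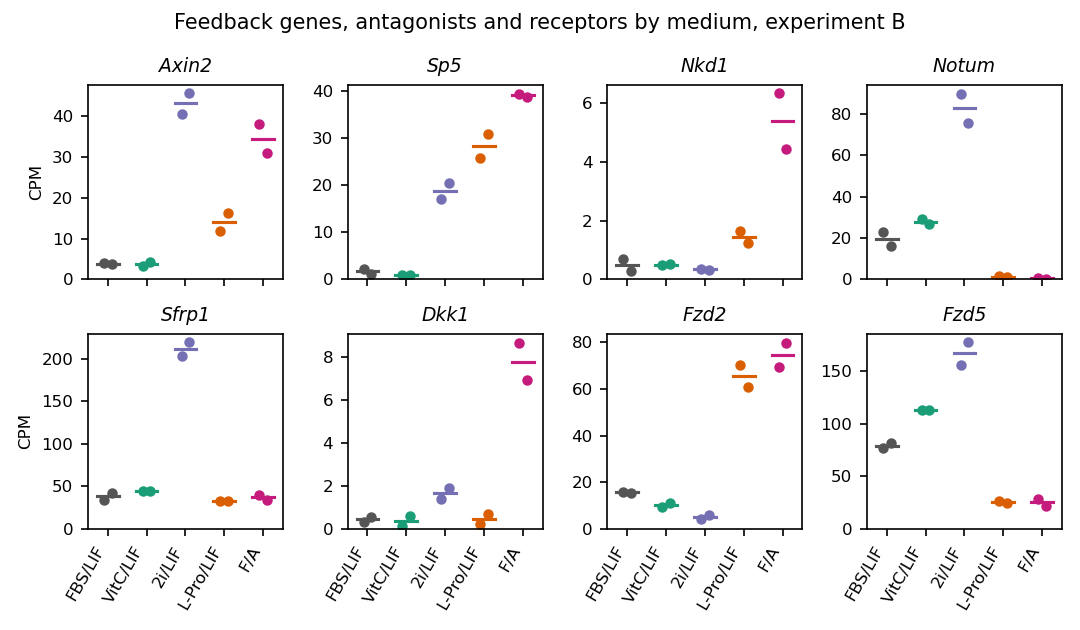
CPM of 8 feedback, antagonist and receptor genes in experiment B; each point is 1 library and each line the mean of the 2 libraries of a medium, on axes that start at 0. Axin2 and Sp5 are high in 2i/LIF, L-Pro/LIF and F/A, Notum and Fzd5 are high in 2i/LIF and low in L-Pro/LIF and F/A, and Dkk1 is high in F/A.

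Of 5 genes of the destruction complex and β-catenin, 0 passed in 2i/LIF and L-Pro/LIF, beside 30.4% and 24% of all tested genes. In F/A 2 rose, or 40%, near the 46.4% of all tested genes. Counts from 5 genes do not show that the levels were alike. Ctnnb1, the gene of β-catenin, was at 934 and 855 CPM in FBS/LIF, 942 and 863 in VitC/LIF, 958 and 886 in 2i/LIF, 959 and 891 in L-Pro/LIF and 720.3 and 845 in F/A, and passed in no comparison run. In 2i/LIF and L-Pro/LIF Ctnnb1, Apc, Axin1, Gsk3a and Gsk3b had log2 differences between -0.10 and 0.28. Axin1 ranged from 42.6 to 81.3 CPM and Gsk3a from 32.6 to 48.0 CPM over the 10 libraries without passing over FBS/LIF. Gsk3b was at 23.5 and 46.6 CPM in FBS/LIF, 31.2 and 33.4 in VitC/LIF, 35.8 and 44.5 in 2i/LIF, 40.4 and 44.5 in L-Pro/LIF and 172 and 100.2 in F/A, and it rose in F/A (log2 1.95 ± 0.34, edgeR adjusted p = 0.00215). Apc was at 90.9 and 114 CPM in FBS/LIF, 86.6 and 120.0 in VitC/LIF, 114 and 127 in 2i/LIF, 101 and 119 in L-Pro/LIF and 253 and 125 in F/A. Its call in F/A (log2 0.88 ± 0.31, edgeR adjusted p = 0.0431) rested on replicate 1: without it the value was 0.27 (edgeR adjusted p 0.366), and with the replicate block the adjusted p was 0.0532.

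Among the TCF/LEF factors, which carry β-catenin to DNA, 0 of 4 passed in 2i/LIF and L-Pro/LIF and 3 rose in F/A. Of all tested genes, 30.4%, 24% and 46.4% were called in these media. With 4 genes, 0 calls do not show that the levels were alike. Lef1 was at 5.41 and 12.2 CPM in FBS/LIF, 3.7 and 3.93 in VitC/LIF, 2.33 and 3.76 in 2i/LIF, 4.17 and 7.63 in L-Pro/LIF and 58.2 and 26.9 in F/A. The F/A libraries lay above all others (log2 2.26 ± 0.50, edgeR adjusted p = 0.00673), with a value of 1.61 without F/A replicate 1 and 2.94 without FBS/LIF replicate 2. Its lower level in 2i/LIF (log2 -1.53 ± 0.52, edgeR adjusted p = 0.0535) missed the threshold but passed in DESeq2, in limma, on unique reads and without the filter. Tcf7 was at 6.89 and 10.2 CPM in FBS/LIF, 5.3 and 9.48 in VitC/LIF, 10.7 and 11.2 in 2i/LIF, 12.1 and 16.7 in L-Pro/LIF and 30.4 and 16.4 in F/A (log2 1.44 ± 0.37, edgeR adjusted p = 0.0133; 0.94 without F/A replicate 1, edgeR adjusted p 0.085). Tcf7l2 was at 0.416 and 3.09 CPM in FBS/LIF, 2.21 and 2.95 in VitC/LIF, 2.81 and 4.09 in 2i/LIF, 1.79 and 4.54 in L-Pro/LIF and 18.5 and 6.1 in F/A. Its F/A value (log2 2.78 ± 0.86, edgeR adjusted p = 0.0277) ranged from 1.79 without F/A replicate 1, which did not pass, to 4.82 without FBS/LIF replicate 2. Tcf7l1, the main repressor of the group in ESCs, was at 5.46 and 6.19 CPM in FBS/LIF, 5.35 and 5.09 in VitC/LIF, 3.34 and 5.49 in 2i/LIF, 2.52 and 6.76 in L-Pro/LIF and 18.1 and 7.15 in F/A. It passed in none of the 7 planned comparisons in edgeR, while DESeq2 called it in F/A over VitC/LIF and over L-Pro/LIF. F/A over 2i/LIF, added later, was 1.49 ± 0.54 (SE) (edgeR adjusted p 0.04). For that comparison no value without F/A replicate 1, the higher library, is given. For all 4 factors and for Apc, Gsk3b and Lrp6 the higher F/A library was replicate 1. Why the 2 F/A libraries differ was not tested.

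The feedback targets were raised in all 3 media, except Nkd1 in 2i/LIF. Axin2, the most used readout of β-catenin activity, was at 3.98 and 3.8 CPM in FBS/LIF, 3.2 and 4.22 in VitC/LIF, 40.5 and 45.5 in 2i/LIF, 11.9 and 16.2 in L-Pro/LIF and 37.9 and 30.9 in F/A. Its lowest value in any of the 3 raised media, 11.9, was above the highest of FBS/LIF and VitC/LIF, 4.22. It rose in 2i/LIF (log2 3.47 ± 0.21, edgeR adjusted p = 1.3e-05), L-Pro/LIF (log2 1.85 ± 0.20, edgeR adjusted p = 0.000414) and F/A (log2 3.14 ± 0.21, edgeR adjusted p = 1.38e-05). F/A over 2i/LIF was -0.33 ± 0.19 (SE) (edgeR adjusted p 0.167), whereas L-Pro/LIF was lower than 2i/LIF (-1.61 ± 0.19 (SE), adjusted p 0.000196) and lower than F/A.

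Sp5, a transcription factor induced by Wnt that acts on other Wnt targets, was ordered differently. It was at 2.22 and 1.22 CPM in FBS/LIF, 0.994 and 0.925 in VitC/LIF, 17.2 and 20.4 in 2i/LIF, 25.8 and 30.9 in L-Pro/LIF and 39.4 and 38.8 in F/A. Sp5 rose in 2i/LIF (log2 3.44 ± 0.25, edgeR adjusted p = 3.14e-05), L-Pro/LIF (log2 4.04 ± 0.26, edgeR adjusted p = 2.79e-05) and F/A (log2 4.50 ± 0.26, edgeR adjusted p = 6.24e-06), and F/A exceeded 2i/LIF by 1.06 ± 0.22 (SE) (edgeR adjusted p 0.00337). Nkd1, which binds Dishevelled and dampens the pathway, was at 0.693 and 0.281 CPM in FBS/LIF, 0.497 and 0.521 in VitC/LIF, 0.371 and 0.336 in 2i/LIF, 1.65 and 1.22 in L-Pro/LIF and 6.34 and 4.45 in F/A. It rose in F/A (log2 3.44 ± 0.46, edgeR adjusted p = 0.000605; 4.2 without FBS/LIF replicate 1) and in L-Pro/LIF (log2 1.54 ± 0.46, edgeR adjusted p = 0.0393; 2.33 without FBS/LIF replicate 1, and lost in DESeq2 and without 3 of the 4 libraries), but not in 2i/LIF (-0.46 ± 0.52 (SE)). F/A exceeded 2i/LIF for Nkd1 by 3.89 ± 0.49 (SE) (edgeR adjusted p 0.000202).

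Called higher over FBS/LIF in 2i/LIF, L-Pro/LIF and F/A alike were 5 genes: Axin2, Sp5, Wnt5b, Wnt11 and Fzd10. Of all tested genes, 12.5%, 13.7% and 24.4% were called higher in these media taken singly. The share called higher in all 3 was not counted, and the 3 comparisons share the FBS/LIF libraries. The 5 genes are therefore a description and not a trait of the Wnt genes. Wnt11 belongs there by a 2i/LIF call that was lost with the replicate block (edgeR adjusted p 0.0652), in DESeq2, in limma, on unique reads, without the filter and without any of 3 of the 4 libraries. The promoters of these genes were examined for the 7-base core CTTTGAT that TCF/LEF factors bind, on both strands, in windows from 250 bases before to 50 bases after each annotated start (RefSeq, GRCm38.p6). Of the 56 Wnt genes, 37 had a window in the table, and 3 of these (8.108%) held the core, beside 4.292% of all 27025 genes; counted by window it was 3 of 47 (6.383%), beside 3.729% of all 32851. The 3 were Sp5, Wnt5b and Wnt11, each of them in the group of 5. The upstream 250 bases of these 3 are shown with the core in capitals, followed by Axin2 and Lef1, whose windows did not hold these letters; each is written 5′ to 3′ along its gene.
Sp5: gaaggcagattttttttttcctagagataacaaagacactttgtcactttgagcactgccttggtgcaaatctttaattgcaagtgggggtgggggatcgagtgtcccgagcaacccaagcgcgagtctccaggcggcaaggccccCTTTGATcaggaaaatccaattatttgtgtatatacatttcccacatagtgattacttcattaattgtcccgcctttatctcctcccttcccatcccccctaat
Wnt5b: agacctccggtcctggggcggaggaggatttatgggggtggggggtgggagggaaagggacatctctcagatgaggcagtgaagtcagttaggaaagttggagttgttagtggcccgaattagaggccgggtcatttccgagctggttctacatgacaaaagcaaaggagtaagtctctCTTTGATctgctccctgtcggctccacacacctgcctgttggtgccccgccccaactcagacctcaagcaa
Wnt11: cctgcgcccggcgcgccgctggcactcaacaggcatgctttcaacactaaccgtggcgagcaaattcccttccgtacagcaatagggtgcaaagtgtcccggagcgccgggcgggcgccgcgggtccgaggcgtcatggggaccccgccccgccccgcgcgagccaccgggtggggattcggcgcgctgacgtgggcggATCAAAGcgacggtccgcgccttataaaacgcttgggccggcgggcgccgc
Axin2: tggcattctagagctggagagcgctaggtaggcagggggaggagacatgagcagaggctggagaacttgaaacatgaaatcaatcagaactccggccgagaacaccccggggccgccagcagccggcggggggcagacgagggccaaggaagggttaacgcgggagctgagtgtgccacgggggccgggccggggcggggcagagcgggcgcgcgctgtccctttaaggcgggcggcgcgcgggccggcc
Lef1: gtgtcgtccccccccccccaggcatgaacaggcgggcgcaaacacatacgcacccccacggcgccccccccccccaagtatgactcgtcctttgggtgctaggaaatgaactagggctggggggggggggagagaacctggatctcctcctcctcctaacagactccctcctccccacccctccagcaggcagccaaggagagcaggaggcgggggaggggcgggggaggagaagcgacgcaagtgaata
The Sp5 stretch is chr2:70474673-70474922 on the plus strand, with the core starting 104 bases before the start. The Wnt5b stretch is chr6:119449387-119449636 on the minus strand, 1 of 3 starts in the table, with the core 71 bases before. The Wnt11 stretch is chr7:98834862-98835111 on the plus strand, 1 of 2 starts, where the core lies on the other strand and is read as ATCAAAG, 51 bases before. The Axin2 stretch is chr11:108920099-108920348 and the Lef1 stretch chr3:131110047-131110296, both on the plus strand and the latter 1 of 4 starts. A match of letters is a description of the sequence, and no binding was measured.

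Genes whose log2 CPM followed the feedback genes most closely over the 10 libraries, among 11667 genes, were Nkx1-2 (Pearson r = 0.9841), Lhpp (0.9819) and Sema5a (0.9783) for Axin2, and Pdzrn3 (0.9913), Ppp2r5d (0.9882) and Dusp14 (0.9827) for Sp5. For Wnt3 they were Efemp1 (0.9974), Igfbp3 (0.9962) and Rhobtb3 (0.9956). The libraries fall into 5 media, so these values mostly describe the order of the media. Nkx1-2, a homeobox gene of the caudal epiblast, went from a mean of 0.279 CPM in FBS/LIF to 28.7 in 2i/LIF, 45.1 in F/A and 2.76 in L-Pro/LIF. Lhpp, its neighbour on chromosome 7, went from 5.54 CPM to 24.8, 21.4 and 10.9 in the same media.

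In VitC/LIF over FBS/LIF 0 of 52 Wnt genes passed in edgeR, which does not show that the levels were alike. An unadjusted edgeR p under 0.05 was reached by 7 of them. The same count was not made over all tested genes, so the 7 are not read as a response. DESeq2 called 1 Wnt gene, Fzd5 (DESeq2 adjusted p 0.0243). Fzd5 was 114 and 114 CPM in VitC/LIF against 76.9 and 81.8 in FBS/LIF, without overlap (log2 0.52 ± 0.14, edgeR adjusted p = 0.156). Wnt3 (log2 -0.71 ± 0.25, edgeR adjusted p = 0.306), Sp5 (log2 -0.84 ± 0.30, edgeR adjusted p = 0.314) and Fzd2 (log2 -0.64 ± 0.17, edgeR adjusted p = 0.159) were lower in both VitC/LIF libraries than in either FBS/LIF library without passing. With VitC/LIF as the reference, 28 Wnt genes passed in L-Pro/LIF, 24 higher and 4 lower (29.8% of all genes), and 36 in F/A, 32 higher and 4 lower (50.5% of all genes). The larger shifts from that reference included Wnt3 in L-Pro/LIF (log2 4.53 ± 0.24, edgeR adjusted p = 6.99e-06), Sp5 in L-Pro/LIF (log2 4.88 ± 0.28, edgeR adjusted p = 9.47e-06) and Notum in F/A (log2 -5.97 ± 0.35, edgeR adjusted p = 4.48e-06).

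F/A and L-Pro/LIF, compared directly, differed in 23 of the 52 genes, 14 higher and 9 lower in F/A, beside 22% of all genes. Higher in F/A were Dkk1, Lef1 (log2 2.84 ± 0.51, edgeR adjusted p = 0.00835; 2.18 without F/A replicate 1), Gsk3b (log2 1.68 ± 0.33, edgeR adjusted p = 0.0122), Wnt5a (log2 2.19 ± 0.31, edgeR adjusted p = 0.0029), Wnt6 and Fzd3 (log2 1.24 ± 0.19, edgeR adjusted p = 0.00457). Lower in F/A were Lgr4 (log2 -1.02 ± 0.10, edgeR adjusted p = 0.000537), Fzd10 (log2 -0.94 ± 0.18, edgeR adjusted p = 0.0102) and Sfrp2 (log2 -1.01 ± 0.23, edgeR adjusted p = 0.0198). Wnt3, Wnt8a, Fzd2, Fzd5, Fzd6 and Lrp5 had log2 differences between -0.01 and 0.48 that did not pass. The count rested on single libraries: leaving out L-Pro/LIF replicate 1 gave 5 genes, L-Pro/LIF replicate 2 gave 10 and F/A replicate 1 gave 13. Fzd3, Lgr4, Wnt5a, Dkk1 and Axin2 passed in every such fit, and the calls of Lef1, Gsk3b, Wnt6, Fzd10 and Sfrp2 were lost in at least 1.

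Around the 56 genes, further pathway genes were followed in 5 lists. Their counts stand beside 30.4%, 24% and 46.4% of all tested genes called in 2i/LIF, L-Pro/LIF and F/A. The list of secretion factors, agonists and other antagonists had 1 of 15 tested genes higher and 6 lower in 2i/LIF, 6 and 1 in L-Pro/LIF, and 10 and 1 in F/A. Wls, the carrier that Wnt ligands need to reach the cell surface, fell in 2i/LIF (log2 -0.95 ± 0.19, edgeR adjusted p = 0.00586) and rose from a mean of 7.43 CPM to 74.6 in L-Pro/LIF (log2 3.33 ± 0.19, edgeR adjusted p = 1.47e-05) and 70.3 in F/A (log2 3.24 ± 0.19, edgeR adjusted p = 5.73e-06). Porcn, the enzyme that adds the lipid to Wnt ligands, fell in L-Pro/LIF (log2 -1.31 ± 0.18, edgeR adjusted p = 0.00106) and F/A (log2 -2.01 ± 0.19, edgeR adjusted p = 7.97e-05). Rspo3, an R-spondin, rose from 0.325 CPM to 18.8 in F/A (log2 5.82 ± 0.44, edgeR adjusted p = 5.28e-05), and the antagonist Frzb from 0.117 to 14.6 (log2 6.89 ± 0.57, edgeR adjusted p = 8.49e-05).

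The list of other Wnt target genes had 7 of 19 higher and 3 lower in 2i/LIF, 8 and 4 in L-Pro/LIF, and 11 and 4 in F/A. T, the brachyury gene of the primitive streak, went from 0.722 CPM to 3.80 in 2i/LIF (log2 2.38 ± 0.19, edgeR adjusted p = 4.57e-05), 43.3 in L-Pro/LIF (log2 5.89 ± 0.19, edgeR adjusted p = 1.85e-06) and 327 in F/A (log2 8.81 ± 0.20, edgeR adjusted p = 8.18e-08). Cdx1, a caudal homeobox gene, rose to 25.6 CPM in 2i/LIF from 0.604 (log2 5.39 ± 0.37, edgeR adjusted p = 2.22e-05) and did not pass in L-Pro/LIF (-0.13 ± 0.39 (SE)) or F/A (-0.66 ± 0.46 (SE)). Tbx3, a naive-state T-box gene, rose in 2i/LIF (log2 2.96 ± 0.26, edgeR adjusted p = 6.71e-05) and was the 1 gene of the list called in VitC/LIF (log2 1.54 ± 0.25, edgeR adjusted p = 0.0352). Esrrb, a naive-state factor that Tcf7l1 is known to repress, went from 163 CPM to 290 in 2i/LIF (log2 0.83 ± 0.20, edgeR adjusted p = 0.0136), 6.86 in L-Pro/LIF (log2 -4.57 ± 0.23, edgeR adjusted p = 1.1e-05) and 1.21 in F/A (log2 -7.09 ± 0.28, edgeR adjusted p = 7.32e-07). Tnfrsf19 rose in all 3 media (log2 2.22 ± 0.18, edgeR adjusted p = 4.51e-05, log2 2.47 ± 0.18, edgeR adjusted p = 4.94e-05 and log2 3.79 ± 0.19, edgeR adjusted p = 2.32e-06).

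Of 13 co-receptors and planar polarity genes, 4 rose and 3 fell in 2i/LIF, 5 rose and 1 fell in L-Pro/LIF, and 9 rose in F/A. Ror1, a receptor for Wnt5a, and Prickle1, a polarity gene, fell in 2i/LIF (log2 -3.16 ± 0.39, edgeR adjusted p = 0.000426 and log2 -2.19 ± 0.31, edgeR adjusted p = 0.000885) and rose in F/A (log2 2.31 ± 0.32, edgeR adjusted p = 0.000671 and log2 3.55 ± 0.27, edgeR adjusted p = 2.67e-05), while Ror2 rose in both (log2 1.92 ± 0.21, edgeR adjusted p = 0.000225 and log2 1.51 ± 0.21, edgeR adjusted p = 0.000713). Of 17 genes of the cytoplasmic machinery, 2 rose and 3 fell in 2i/LIF, 3 rose in L-Pro/LIF, and 9 rose and 1 fell in F/A, or 29.4%, 17.6% and 58.8% called; the first was near the share of all tested genes and the second below it. Amer1, which recruits Axin to the membrane, moved from 19.9 CPM to 12.0, 37.5 and 44.1 in the 3 media, each passing. Of 12 nuclear cofactors, 2 rose and 1 fell in 2i/LIF, 1 rose and 1 fell in L-Pro/LIF, and 3 rose and 2 fell in F/A, or 25%, 16.7% and 41.7% called, each below the share of all tested genes. Tle4, a corepressor of TCF factors, fell in all 3 media, furthest in F/A (log2 -1.22 ± 0.18, edgeR adjusted p = 0.00108), and the coactivator gene Bcl9 rose in F/A (log2 2.73 ± 0.44, edgeR adjusted p = 0.00149).

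Markers of other cell types also differed between the media. The mesendoderm list (8 genes) summed to 4.75 to 6.19 CPM in FBS/LIF and VitC/LIF, 22.3 and 22.9 in 2i/LIF, 60.2 and 71.0 in L-Pro/LIF and 461 and 482 in F/A. Of these, 3 rose in 2i/LIF, 5 rose in L-Pro/LIF and all 8 rose in F/A. That is 37.5%, 62.5% and 100% called, beside 30.4%, 24% and 46.4% of all tested genes, the first near that share. The primitive endoderm list (10 genes) summed to 192 and 274 CPM in FBS/LIF, 250 and 264 in L-Pro/LIF, within that range and with 2 genes higher and 1 lower, and 365 and 438 CPM in F/A with 7 genes higher and 1 lower. In 2i/LIF 5 fell. The shares called were 50% in 2i/LIF, 30% in L-Pro/LIF, near the 24% of all tested genes, and 80% in F/A. Most of each sum was Lama1, Col4a1 and Col4a2, which moved apart. In FBS/LIF and L-Pro/LIF Lama1 averaged 123 and 50.7 CPM, Col4a1 70.0 and 131, and Col4a2 29.5 and 62.6. Gata6, Sox17, Sox7 and Foxa2 averaged 0.31 to 1.00 CPM in these 2 media. Gata4 averaged 1.66 and 2.43 CPM in them, Pdgfra 1.82 and 2.05, and Dab2 4.18 and 5.98. In F/A Gata6 averaged 8.07 CPM, Sox17 7.90, Foxa2 22.0 and Sox7 0.33. Foxa2 is also in the mesendoderm list. The neuroectoderm list (5 genes, of which Pax6 and Nes were tested) summed to 59.0 to 82.6 CPM in FBS/LIF and VitC/LIF, 17.1 and 19.7 in 2i/LIF, 282 and 313 in L-Pro/LIF and 324 and 466 in F/A. Nearly all of it was Nes, which rose in L-Pro/LIF and F/A and fell in 2i/LIF, while Pax6 fell in 2i/LIF and averaged 6.36 CPM in FBS/LIF, 5.82 in F/A and 4.54 in L-Pro/LIF. The fibroblast list (12 genes) summed to 13.2 to 16.6 CPM in FBS/LIF, VitC/LIF and 2i/LIF, 60.9 and 66.5 in L-Pro/LIF and 73.6 and 84.3 in F/A, most of it from Col5a1. Of 9 tested, 7 rose and 0 fell in both L-Pro/LIF and F/A, among them Col3a1 (a mean of 0.466 CPM in FBS/LIF, 2.38 in F/A and 2.86 in L-Pro/LIF), Dcn (0.371, 2.44 and 3.08 CPM) and Col1a2 (0.605, 2.49 and 2.49 CPM), and 1 rose and 3 fell in 2i/LIF. Lum, Postn and Fap, not tested, were at or below 0.24 CPM on average in every medium. In these bulk samples, fewer or more cells of a type and less or more RNA per cell cannot be told apart, and the part of such cells in the Wnt results was not tested.

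Experiment A sampled F/A on days 3 and 5 with 1 library each and no replicate check, so the values describe these libraries and do not establish an order of events. Of the 44 Wnt genes with at least 1 CPM in day 0 or day 3 of F/A, 23 were past a 2-fold difference (21 higher and 2 lower), beside 30.4% of all genes. On day 5 of F/A 33 of 47 were (27 and 6), beside 37.1%, and after 5 days of L-proline 24 of 45 (22 and 2), beside 35.2%. Ligands past 2-fold numbered 7, 12 and 11 in these, each of them higher. Wnt8a and Lef1 were highest in the day 3 library: Wnt8a was 0.474 CPM on day 0, 75.8 on day 3 and 37.2 on day 5, and Lef1 19.6, 90.6 and 59.6 CPM. Their 95% counting intervals on days 3 and 5, which leave out variation between cultures, did not overlap. Fzd2 was near its day 5 level on day 3 (1.3, 39.1 and 46.2 CPM), as was the loss of Notum (23.4, 0.464 and 0.903 CPM) and of Fzd5 (182, 17.9 and 26.9 CPM).

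Other genes were high on day 5 and not on day 3. Sp5 was 0.0593 CPM on day 0, 1.2 on day 3 and 65.5 on day 5, Wnt6 0.474, 1.36 and 74.5 CPM, and Dkk1 0.0593, 0.409 and 6.08 CPM. Axin2 (8.06, 15.9 and 45.2 CPM) and Wnt3 (0.0889, 18.6 and 57.9 CPM) lay in between on day 3. The day 3 library had Wnt8a, Lef1 and Fzd2 near or above their day 5 levels and Sp5, Wnt6 and Dkk1 far below theirs. The mesendoderm marker list summed to 7.85 CPM on day 0, 38.0 on day 3 and 1018 on day 5.

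**Figure D5:**
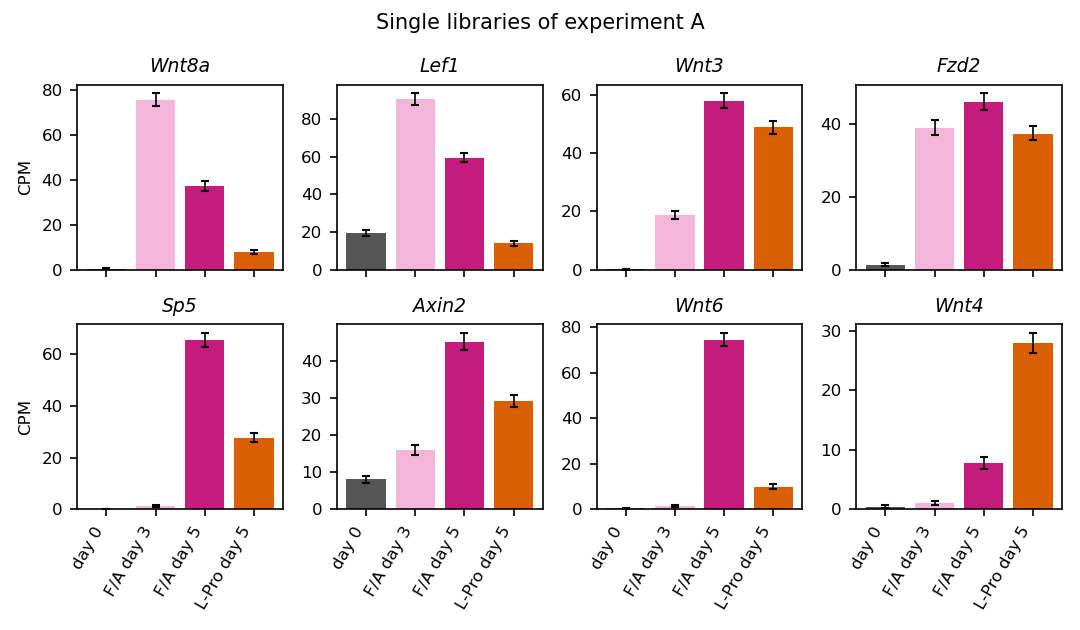
CPM of 8 Wnt genes in the 4 single libraries of experiment A; bars start at 0 and error bars are 95% counting intervals, which do not cover variation between cultures. Wnt8a and Lef1 are highest in the day 3 library of F/A, Sp5 and Wnt6 are low on day 3 and high on day 5, and Wnt4 is highest after 5 days of L-proline.

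After 5 days of L-proline, Wnt3 was at 48.9 CPM, Wnt4 at 27.9, Wnt7b at 17.6, Wnt9a at 12.8, Sp5 at 27.8 and Axin2 at 29.1 CPM. Wnt4 and Wnt9a were higher there than on day 5 of F/A, and Wnt6 and Sp5 lower, with counting intervals that did not overlap. Lef1 was at 14 CPM, below day 0. Ctnnb1 stayed between 717 and 791 CPM in all 4 libraries, and Apc, Axin1, Gsk3a, Tcf7 and Tcf7l1 stayed within 2-fold of day 0, while Gsk3b passed 2-fold on day 5 of F/A alone (146 against 62.4 CPM). Tcf7l2 passed 2-fold after L-proline alone (24.5 against 10.5 CPM), with log2 ratios of -0.49 and 0.63 on days 3 and 5 of F/A. In experiment B Tcf7l2 was called over FBS/LIF in F/A and not in L-Pro/LIF.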

How the data were processed

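RNA-seq measured total RNA prepared with standard Illumina libraries, per the labels. For experiment A the authors deposited raw read counts per gene, and the submitters' processing notes name CASAVA, TopHat2 2.0.13, HTSeq 0.6.1p1 and the builds mm9 and NCBIM37 among the tools; whether counting used strand is not given. For experiment B the deposited per-gene values are natural logs of FPKM, with unique read counts and effective lengths beside them, per the file headers, and the notes name Bowtie and DESeq; replicates were deposited separately. Estimated counts were computed here from FPKM, effective length and the mapped total in each header, then rounded.

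Experiment B was tested with edgeR 4.0.16 (R 4.3.3) on these estimated counts: default low-count filter, TMM scaling, 1 quasi-likelihood model of the 10 libraries (5 residual degrees of freedom), Benjamini-Hochberg adjustment over 16033 genes and a threshold of 0.05. Experiment A was not tested: folds used a prior count of 2, a minimum of 1 CPM and exact 95% counting intervals. The fits were tested on simulated data. Alternatives were DESeq2 1.42.0, limma 3.58.1 on log2(FPKM + 0.1), other scaling, no filter, unique reads, a replicate block and leaving out each library.

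The 56 genes, the further lists and the tests were chosen with earlier results of these data known. Values in every library are given for genes called in at least 1 comparison with a mean of at least 5 CPM in the higher group, and for the core genes (Ctnnb1, Apc, Gsk3a, Gsk3b, Axin1, Axin2, Lrp5, Lrp6 and the TCF/LEF genes). Other genes are given by range or count, and those given with more, such as Wnt11, Nkd1, Lgr5 and Rnf43 where they fell outside this rule, were named after their values were seen. From each further list, genes came from the 6 largest called changes of a comparison. Promoter sequences are RefSeq's for GRCm38.p6, not the build of the files, and 37 of the 56 genes matched an entry. Antisense or overlapping transcripts could not be separated.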

Additional observations from a re-analysis of the deposited data

Results flagged for a closer look

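The experiments gave opposite signs for 2 Wnt genes among those called over VitC/LIF in experiment B without overlap between its libraries, and with 95% counting intervals apart in experiment A. Outside these limits other genes also differed in sign, among them Tcf7l1 in F/A, with a log2 ratio of -0.39 on day 5 in experiment A against an uncalled 1.25 ± 0.53 (SE) in experiment B. Dkk3, a divergent Dickkopf, had a log2 ratio of -0.747 in the single L-proline library of experiment A over day 0, against a log2 fold change of 0.974 for L-Pro/LIF over VitC/LIF in experiment B, where both L-Pro/LIF libraries were above both VitC/LIF libraries. That call was lost without either VitC/LIF library (log2 1.14 and 0.82) and without L-Pro/LIF replicate 1 (0.81). Wnt7b had a log2 ratio of 1.80 on day 5 of F/A over day 0 in experiment A, against -0.838 for F/A over VitC/LIF in experiment B. Its level on day 0 of experiment A was 1.13 CPM, against 14.6 and 12.4 CPM in VitC/LIF. The experiment B call of Wnt7b was lost without VitC/LIF replicate 1 (log2 -0.73) and in limma (log2 -0.61, limma adjusted p 0.0598). The difference between the experiments was not tested. They also differ in cell population (mCherry+/eGFP+ cells in experiment A), vitamin C dose, RNA extraction and counting procedure, and these cannot be told apart.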

How the results depend on the processing

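Counts of called Wnt genes stayed within 1.5 times under every change of scaling, filter, reads or tool, except that DESeq2 called 1 gene in VitC/LIF over FBS/LIF where edgeR called 0, and that a minimum of 5 CPM left 11 genes past 2-fold on day 3 of F/A in experiment A, since fewer were counted. Leaving out 1 library gave 20 to 23 called genes in 2i/LIF, 17 to 20 in L-Pro/LIF and 25 to 39 in F/A over FBS/LIF, 0 in VitC/LIF, 20 to 22 in L-Pro/LIF and 30 to 42 in F/A over VitC/LIF, and 5 to 27 in F/A over L-Pro/LIF. Of the called genes, 20 of 25, 16 of 27 and 25 of 40 kept their calls in every such fit in 2i/LIF, L-Pro/LIF and F/A over FBS/LIF. With 1 library left in a group, that library is assumed to vary like the others.

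Signs turned for uncalled values only. In limma Gsk3b was -0.00476 in 2i/LIF, Tcf7l1 0.55 in L-Pro/LIF and Ctnnb1 0.0335 in F/A. Leaving out single libraries, Gsk3b ranged from -0.22 to 0.77, Lrp6 from -0.31 to 0.0589, Ctnnb1 from -0.0216 to 0.11 and Axin1 from -0.30 to 0.41 in 2i/LIF. In L-Pro/LIF Apc ranged from -0.0536 to 0.28, Gsk3b from -0.13 to 0.85, Lef1 from -1.07 to 0.13, Ctnnb1 from -0.0174 to 0.11 and Tcf7l1 from -1.20 to 0.20. The cause was not tested.

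The labels do not say what a replicate number shares. Same-numbered libraries correlated at 0.0985 to 0.518 in their deviations across genes, above 0.1 in 9 of the 10 pairs of media, and the block lowered the common coefficient of variation from 0.238 to 0.189, a hint from the data that a number may mark something shared. A replicate block gave 24, 0, 26, 38, 28, 37 and 22 called genes in the 7 comparisons, in the order 2i/LIF, VitC/LIF, L-Pro/LIF and F/A with FBS/LIF as reference, then L-Pro/LIF and F/A with VitC/LIF as reference, then F/A with L-Pro/LIF as reference. It lost 8 calls: Wnt11 and Wnt16 in 2i/LIF, Wnt10b in L-Pro/LIF, Apc and Znrf3 in F/A over FBS/LIF, Apc in F/A over VitC/LIF, and Fzd7 and Wnt4 in F/A over L-Pro/LIF. Size factors of DESeq2 in place of TMM shifted the median of all genes by at most 0.0308. Depth limits the ligands below 1 CPM, and most of all F/A replicate 1.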

Other observations

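Some Wnt genes had other levels in the starting cells of experiment A than in VitC/LIF of experiment B, the nearest medium, although both were serum, LIF and vitamin C. Tcf7l1, the main TCF repressor of ESCs, was at 82.7 CPM on day 0 against 5.35 and 5.09 CPM in VitC/LIF, and Tcf7 at 53.2 CPM against 5.3 and 9.48 CPM. Fzd10 went the other way, at 1.42 CPM against 14.4 and 12.1 CPM. Ctnnb1 was at 725 CPM against 942 and 863 CPM. The gaps of Tcf7l1, Tcf7 and Fzd10 were not particular to day 0. After L-proline, on day 3 and on day 5 of F/A, Tcf7l1 was at 84.8, 64.2 and 63.0 CPM. Tcf7 was at 59.2, 57.5 and 69.5 CPM there and Fzd10 at 3.10, 3.14 and 3.55 CPM. The level of Fzd10 in experiment B is uncertain, since most of its estimated counts were not from unique reads. Experiment A held mCherry+/eGFP+ cells, and the experiments were counted by different procedures, so these levels are not compared by a test.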
